A study of Mus musculus with 3 samples.

Results

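The let-7 family of microRNAs (miRNAs) was followed through its guide strands, the 5p arms let-7a, let-7b, let-7c, let-7d, let-7e, let-7f, let-7g, let-7i and miR-98. They were chosen by name, and they make up 9 of the 1265 mouse miRNA probes on the array. A Toray 3D-Gene array, labelled with the single dye Cy5, was hybridized with total RNA from each of 3 cultures. C2C12 is a mouse myoblast line that fuses into myotubes when serum is reduced. C2C12-PR cells were grown in DMEM with 10% fetal bovine serum. C2C12-DF cells were kept in DMEM with 2% horse serum for a time that is not given in the sources used here. W4-08-PR cells (W408 in the labels) were grown in the same medium as C2C12-PR. W4-08 is a C2C12 subline that carries a vector with V5-tagged Wnt4 cDNA under the CMV promoter and a blasticidin selection gene, and whether it is a single clone is not stated. There were no replicates, so no test between conditions was possible. In the text, ± is 1 technical SD from the scatter of blank and spike control spots and holds no biological variation.

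A miRNA acts through its seed, the bases near its 5′ end that pair with target messages, and members of the let-7 family share their seed and many of their targets. The family was found in Caenorhabditis elegans as a timing gene and is known in mammals as a brake on growth and stem cell programs, with Lin28, Hmga2 and Ras genes among its targets. The Lin28 proteins in turn bind let-7 precursors and block their maturation. Mature let-7 is scarce in embryonic stem cells and abundant in most differentiated tissues.

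The 9 guide strands differ from each other by few bases, which is why they are shown here in full. All 9 matched a mature miRNA in RefSeq (build GRCm38.p6). They are written 5′ to 3′ with the seed, bases 2 to 8, in capitals. The prefix mmu marks the mouse and is left out elsewhere in the text.
mmu-let-7a-5p: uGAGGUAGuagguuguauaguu
mmu-let-7b-5p: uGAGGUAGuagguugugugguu
mmu-let-7c-5p: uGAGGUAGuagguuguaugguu
mmu-let-7d-5p: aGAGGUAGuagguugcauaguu
mmu-let-7e-5p: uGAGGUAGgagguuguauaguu
mmu-let-7f-5p: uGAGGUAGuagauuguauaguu
mmu-let-7g-5p: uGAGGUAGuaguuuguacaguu
mmu-let-7i-5p: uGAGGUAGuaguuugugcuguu
mmu-miR-98-5p: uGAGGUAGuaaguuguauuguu

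All 9 have 22 bases and the same seed. Positions are counted from 1 at the 5′ end, with the let-7a base first and the other member's base last. let-7c differs from let-7a by A19G alone, let-7e by U9G alone and let-7f by G12A alone. let-7b differs by A17G and A19G, let-7d by U1A and U16C, let-7g by G12U and U18C, and miR-98 by G11A and A19U. let-7i is the farthest from let-7a, with the 4 differences G12U, A17G, U18C and A19U. Sequences this close may bind each other's probes, and the array offers no measure of how far they do so.

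The genes lie in several clusters. On chromosome 13, on the minus strand, let-7d (chr13:48536078-48536099), let-7f (chr13:48537889-48537910) and let-7a (chr13:48538239-48538260) follow each other as Mirlet7d, Mirlet7f-1 and Mirlet7a-1. On chromosome 15, on the plus strand, let-7c (chr15:85706616-85706637) and let-7b (chr15:85707325-85707346) are made from Mirlet7c-2 and Mirlet7b. On the X chromosome, on the plus strand and within the span of Huwe1, let-7f (chrX:151912353-151912374) and miR-98 (chrX:151913229-151913250) come from Mirlet7f-2 and Mir98. let-7c has another copy, Mirlet7c-1, beside Mir99a on the plus strand of chromosome 16 (chr16:77599672-77599693). let-7e (chr17:17830366-17830387, plus strand) lies within the span of Spaca6, beside Mir125a. let-7g (chr9:106178846-106178867, plus strand) lies within the span of Wdr82. let-7i (chr10:122985698-122985719, minus strand) has no other miRNA gene on its strand within 50 kb in this annotation. A further let-7a gene, Mirlet7a-2, lies on chromosome 9 near Mir100. let-7a, let-7c and let-7f are therefore sums over more than 1 gene on any array.

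Detection followed the authors, whose processed values start close to 2 SD above the mean of the blank spots, both taken after trimming 5% of these spots at each end. By this limit the C2C12-PR array detected 339 probes, the C2C12-DF array 370 and the W4-08-PR array 477, with 277 detected by all 3, while 6.01% to 7.15% of the blank spots also passed it. Between arrays the spike control spots differed by a mean log2 of 0.017 to 0.072. The muscle miRNAs miR-1a, miR-133a, miR-133b and miR-206, which mark the cell type, were detected for 3, 3 and 4 of 4 probes and summed to 122, 405 and 3650 units above background on C2C12-PR, C2C12-DF and W4-08-PR. Of 12 probes for blood, neural, liver and epithelial miRNAs, 1, 1 and 2 were detected, with sums of 27.4, 35.6 and 53.4 units. Those detected were blood miRNAs, miR-223-3p on C2C12-PR (18.8 units) and W4-08-PR (13.5), and miR-142-5p on C2C12-DF (16.9) and W4-08-PR (9.82). The neural, liver and epithelial probes, with miR-124-3p, miR-122-5p and miR-200c-3p among them, were undetected on every array. The part of these differences in the let-7 readings was not tested.

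All 9 guide strands were detected on all 3 arrays. The brightness of 1 probe is compared between arrays only, since probes differ in how well they bind. let-7a-5p read 1465 units above background in C2C12-PR cells, 2094 units in C2C12-DF cells and 2441 units in W4-08-PR cells. let-7b-5p read 1198, 1887 and 2110 units in the same order. let-7c-5p read 1547, 2225 and 2424 units. In each of these 3 members, which differ from each other by no more than 2 bases, the C2C12-PR array was clearly the dimmest and the other 2 arrays lay close together. let-7d-5p, a neighbour of let-7a in the genome, followed the same order with 1238, 1667 and 1887 units. let-7e-5p read 550.1, 682 and 714 units. let-7g-5p read 362, 413 and 448 units. For these 3 members too C2C12-PR was the dimmest and W4-08-PR the brightest. miR-98-5p, the dimmest of the probes, gave 38.0, 42.9 and 55.9 units, which is 5.01, 6.28 and 8.70 SD when the SD is taken over every blank spot. let-7f-5p broke the order, with 706, 665 and 993 units. let-7i-5p did so by more, with 205, 141 and 268 units. Thus, in unscaled units, W4-08-PR was the brightest array for all 9 members. C2C12-DF lay above C2C12-PR for 7 members and below it for let-7f and let-7i. Between these 2 arrays the spike-scaled differences of let-7f, let-7g and miR-98 were smaller than 1 technical SD. The 277 probes detected on all 3 arrays had spike-scaled log2 medians above 0 too, 0.27 (W4-08-PR) and 0.19 (C2C12-DF) over C2C12-PR. With quantile normalization, W4-08-PR was not the brightest array for every member. Its log2 ratios over C2C12-PR were then -0.13 for let-7g and -0.097 for let-7i, with 6 members above 0. Over C2C12-DF they were -0.31 for let-7e and -0.13 for let-7g, again with 6 above 0.

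**Figure D1:**
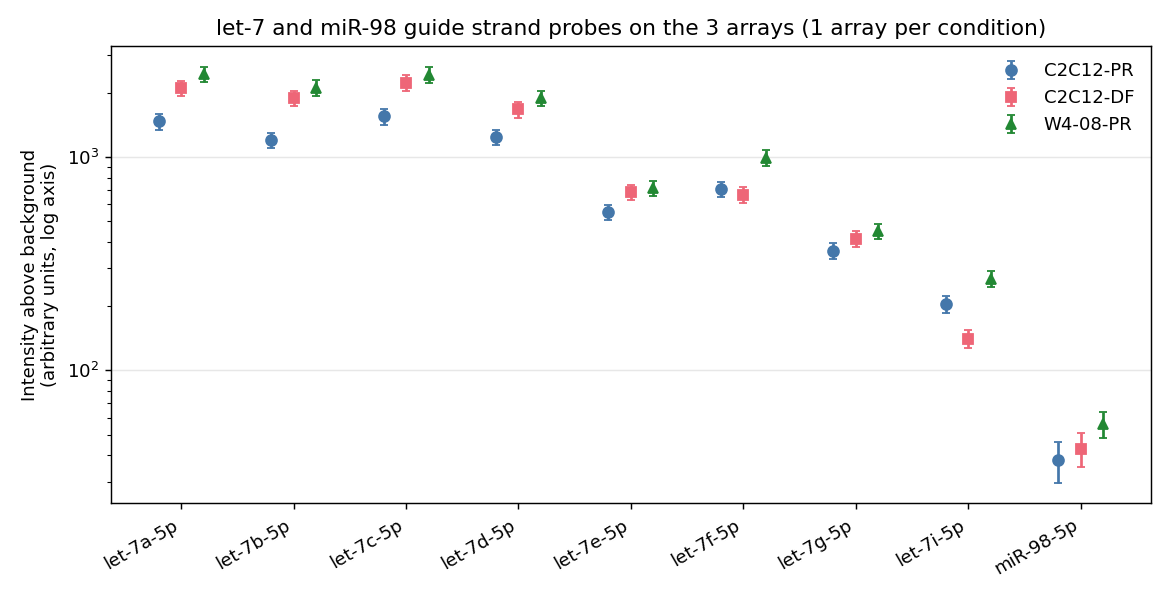
Intensity above background (arbitrary units, log axis) of the 9 guide strand probes on the C2C12-PR (circles), C2C12-DF (squares) and W4-08-PR (triangles) arrays, 1 array per condition, with bars of 1 technical SD. Each probe is to be read across arrays only, and let-7f-5p and let-7i-5p are the 2 members whose C2C12-DF reading lies below C2C12-PR.

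For the ratios, the intensities were corrected with the normexp model (offset 50) and quantile-normalized, and calls were made at a 2-fold difference in either direction (a log2 ratio of 1) for probes detected on the brighter array. Because the scale of an array moves all its ratios together, each ratio is also given with plain background subtraction and scaling to the spike control spots. On the quantile scale a ratio can be exactly 0 where a probe held the same rank on both arrays.

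In Wnt4-over-expressing W4-08-PR cells relative to C2C12-PR cells, none of the 9 guide strands was called higher or lower. Among all 514 probes detected on at least 1 of these 2 arrays, 0.584% were called higher and 1.75% lower. The highest log2 ratio belonged to let-7b-5p, at 0.62 ± 0.16 (1.54-fold), followed by let-7a-5p at 0.55 ± 0.16 (1.47-fold). let-7c-5p read 0.34 ± 0.16, and these 3 alone lay more than 2 technical SD from 0. let-7f-5p and let-7d-5p had log2 ratios of 0.30 ± 0.16 each. The remaining 4 members, let-7e-5p (0.00), miR-98-5p (0.050), let-7i-5p (-0.097) and let-7g-5p (-0.13), lay within 1 technical SD of 0, which is 0.14 to 0.16 across the family.

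The family median was a log2 ratio of 0.30, or 1.23-fold, beside -0.025 for the 277 probes detected on all 3 arrays, of which 16.2% lay above the family median (34.3% on the spike and the authors' scales). Scaled to the spike controls, all 9 members read above 0, from 0.24 ± 0.17 for let-7g-5p to 0.74 ± 0.17 for let-7b-5p. The median was then 0.49 beside 0.27 for the 277 probes, and 5 members (let-7a, let-7b, let-7c, let-7d and let-7f) lay more than 2 technical SD above 0. None of the 9 passed the 2-fold limit on this scale, where 9.73% of the 514 probes were called higher and 4.28% lower. In the authors' processed values all 9 members were at least 2-fold higher, with a median log2 ratio of 1.26, where 45.7% of the 514 probes were called higher, 0.584% lower, and the median of the 277 probes was 1.05. Set against the median of those probes, the family stood 0.32 higher on the quantile scale and 0.22 higher on the spike and the authors' scales.

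In C2C12-DF cells relative to C2C12-PR cells, the members went different ways. let-7b-5p was the highest of the 9, with a log2 ratio of 0.50 ± 0.16 (1.41-fold), and let-7i-5p the lowest, with -0.52 ± 0.14 (1.44-fold lower). These were the 2 members more than 2 technical SD from 0, and neither passed the 2-fold limit. None of the 9 was called, where 0.708% of the 424 probes detected on either array were called higher and 3.30% lower. let-7a-5p (0.31 ± 0.16), let-7e-5p (0.31 ± 0.16), let-7d-5p (0.30 ± 0.16) and let-7c-5p (0.24 ± 0.16) lay above 0 by more than 1 technical SD. miR-98-5p read 0.042 ± 0.15, and let-7f-5p and let-7g-5p held their rank at 0.00.

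The family median was 0.24 beside 0.048 for the 277 probes, 28.2% of which lay above it (42.2% on the spike and the authors' scales). With scaling to the spike controls, let-7a, let-7b, let-7c and let-7d were higher by more than 2 technical SD, at 0.50 ± 0.17, 0.64 ± 0.17, 0.51 ± 0.17 and 0.41 ± 0.17. let-7i-5p was lower by as clear a margin, at -0.56 ± 0.19, and let-7f-5p lay at -0.10 ± 0.17. The median of the 9 was 0.29 beside 0.19 for the 277 probes, and none was called, against 7.31% of the 424 probes higher and 7.78% lower. In the authors' processed values none of the 9 was called, against 13% of the 424 probes called higher and 6.13% lower, and the family median was 0.52 beside 0.41.

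let-7i-5p had the lowest and let-7b-5p the highest log2 ratio of the 9 in C2C12-DF over C2C12-PR in all 9 combinations of background step and scaling. Scaling by 1 factor per array moves all members together, so it could not change this order. Only the background step and quantile normalization could do so, and all settings use the same arrays. let-7i-5p ranged from -0.71 to -0.33 and let-7b-5p from 0.50 to 0.86. let-7f-5p changed sign among them, between -0.10 and 0.12.

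**Figure D2:**
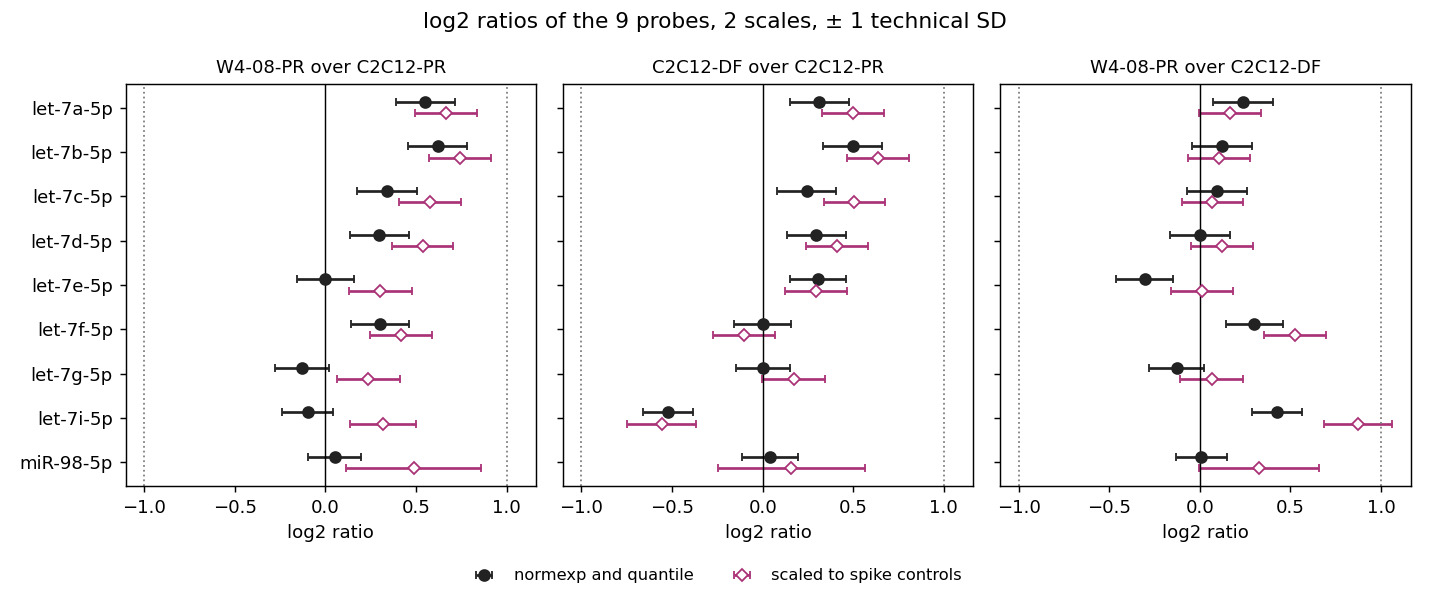
log2 ratios of the 9 guide strands in the 3 comparisons, on the normexp and quantile scale (filled circles) and with plain subtraction scaled to the spike controls (open diamonds), with bars of 1 technical SD and dotted lines at the 2-fold limit. No member passes the limit on either scale, and let-7i-5p stands at -0.52 in C2C12-DF over C2C12-PR and at 0.42 in W4-08-PR over C2C12-DF.

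In W4-08-PR cells relative to C2C12-DF cells, let-7i-5p had the highest log2 ratio, 0.42 ± 0.14 (1.34-fold), and was the 1 member more than 2 technical SD from 0. let-7f-5p came next at 0.30 ± 0.16, and let-7e-5p was lowest at -0.31 ± 0.16. None of the 9 was called, against 0.954% of 524 probes called higher and 1.15% lower. The median of 0.095 lay beside -0.023 for the 277 probes. Scaled to the spike controls, let-7i-5p read 0.87 ± 0.19 (1.83-fold) and let-7f-5p 0.52 ± 0.17 (1.44-fold), whereas the other 7 lay between 0.010 and 0.33, each within 1 technical SD of 0. None was called on this scale, against 10.1% of the 524 probes higher and 3.05% lower. In the authors' processed values let-7i-5p (1.43) and let-7f-5p (1.08) were the 2 members called higher, where 30% of the 524 probes were called higher and 0.382% lower. The family median on the spike scale was 0.12 beside 0.18 for the 277 probes, and in the authors' values 0.68 beside 0.74, so that the family lay above those probes on the quantile scale but below them on these 2 scales. The 3 comparisons use 3 arrays in all and share them, so the low C2C12-DF readings of let-7i and let-7f enter both comparisons with that array.

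**Figure D3:**
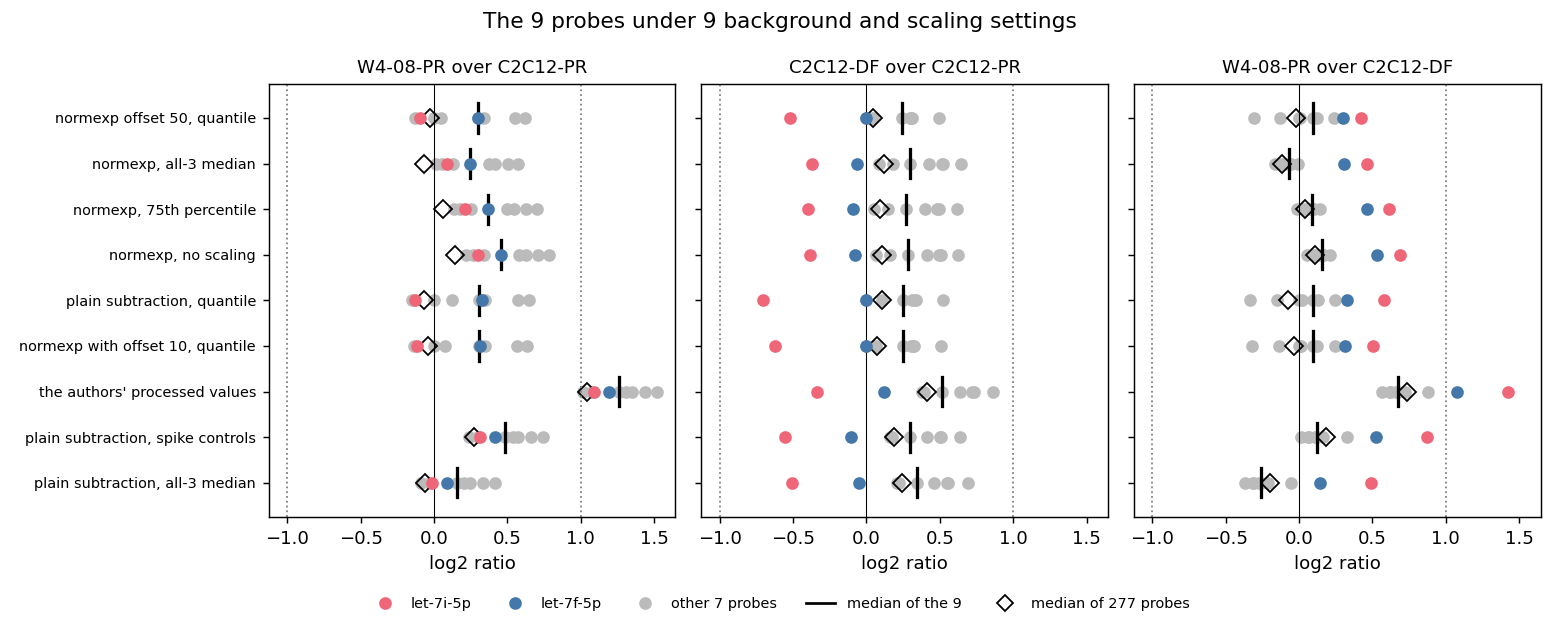
log2 ratios of the 9 guide strands (points, with let-7i-5p in red and let-7f-5p in blue) under 9 combinations of background step and scaling, with the family median (bar) and the median of the 277 probes detected on all arrays (diamond). The position of the whole family moves with the scale, from a median of 0.16 to 1.26 in W4-08-PR over C2C12-PR, while let-7i-5p stays lowest in C2C12-DF over C2C12-PR and highest in W4-08-PR over C2C12-DF. Settings that differ by 1 factor per array alone have the same order of members by construction.

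The difference between the ratios of 2 members does not depend on a linear scaling of the arrays. It was taken for all 36 pairs after plain background subtraction. In C2C12-DF over C2C12-PR, 10 pairs differed by more than 2 technical SD, of which 6 held let-7i-5p, the other 4 held let-7f-5p, and 0 held neither. On the quantile scale, which does not move an array's probes together, 11 pairs passed, of which 8 held let-7i-5p and 1 held let-7f-5p without it. The 2 that held neither were let-7b-5p over let-7g-5p (0.50 ± 0.22) and over miR-98-5p (0.46 ± 0.22). After plain subtraction these 2 pairs differed by 0.47 ± 0.24 and 0.48 ± 0.44, within 2 technical SD. let-7b-5p over miR-98-5p thus passed by its smaller technical SD on the quantile scale, not by a larger difference. So did miR-98-5p over let-7i-5p, at 0.56 ± 0.21 on that scale and 0.71 ± 0.45 after plain subtraction. Passing on both scales were 7 pairs, 6 with let-7i-5p and let-7b-5p with let-7f-5p. let-7i and let-7f were singled out after their values were seen. The next values are after plain subtraction, unless said otherwise. let-7b-5p exceeded let-7i-5p by a log2 of 1.19 ± 0.26 and let-7a-5p exceeded it by 1.05 ± 0.26. let-7g-5p, which is the nearest to let-7i with 2 differing bases, exceeded it by 0.73 ± 0.26. let-7f-5p exceeded it by 0.45 ± 0.26, within 2 technical SD, and by 0.52 ± 0.21, past them, on the quantile scale. let-7a-5p exceeded let-7f-5p, from which G12A alone separates it, by 0.60 ± 0.24, but by 0.31 ± 0.23 on the quantile scale, within 2 technical SD. let-7a-5p and let-7c-5p, also 1 base apart, differed by 0.0091 ± 0.24.

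In W4-08-PR over C2C12-PR the count of pairs depended on the scale. After plain subtraction 1 pair of the 36, let-7b-5p over let-7g-5p, passed 2 technical SD, with 0.51 ± 0.24. On the quantile scale 10 pairs did, that one among them, and 3 of the 10 held let-7i-5p. Each set let-7a, let-7b or let-7c above let-7e, let-7g, let-7i or miR-98. The technical SD on that scale leaves out the steps between ranks. With normexp before the quantile step, let-7a, let-7e and let-7g lay closer together, at 0.71, 0.34 and 0.26. After it they read 0.55, 0.00 and -0.13. In W4-08-PR over C2C12-DF 7 pairs passed after plain subtraction, 6 with let-7i-5p and 1 with let-7f-5p. On the quantile scale 5 did, 3 with let-7i-5p, 1 with let-7f-5p and 1, let-7a-5p over let-7e-5p (0.54 ± 0.23), with neither, and 3 passed on both scales. let-7i-5p differed from let-7a, let-7b, let-7c and let-7d by 0.18 to 0.42 on the quantile scale there, within 2 technical SD. It passed with miR-98-5p on that scale alone, at 0.42 ± 0.20 against 0.54 ± 0.38 after plain subtraction, through the smaller technical SD. After plain subtraction the 4 pairs that are 1 base apart differed by a median of 0.17 (0.0091 to 0.60) in C2C12-DF over C2C12-PR. The 10 pairs 2 bases apart differed by 0.33 (0.086 to 0.73), and the 22 pairs with 3 or more by 0.40 (0.014 to 1.19). All pairs of let-7i-5p except that with let-7g-5p are in this last group. Across the 36 pairs, which share members and arrays, the Spearman correlation of base differences with ratio differences was 0.33 there, 0.079 in W4-08-PR over C2C12-PR and 0.22 in W4-08-PR over C2C12-DF. The number of G and C bases runs from 7 in let-7f and miR-98 to 10 in let-7b, and its part in these differences was not tested.

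**Figure D4:**
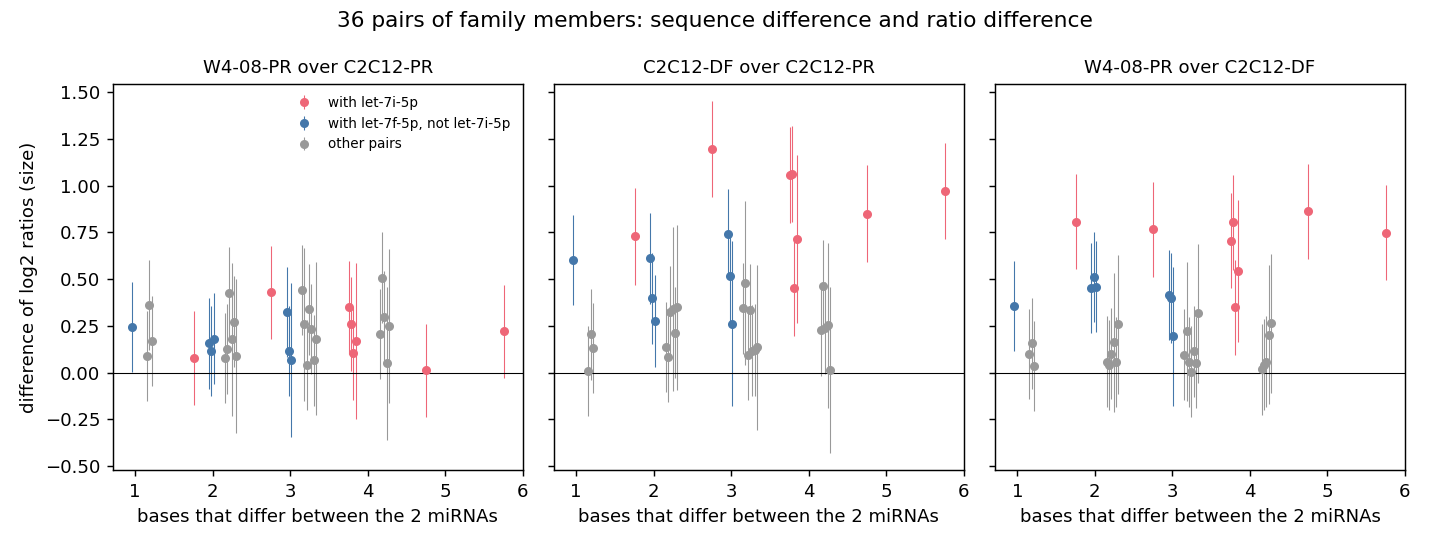
Size of the difference between the log2 ratios of 2 guide strands (plain subtraction, 1 technical SD as bars) against the number of bases that differ between them, for the 36 pairs in each comparison. In C2C12-DF over C2C12-PR the 10 pairs beyond 2 technical SD hold let-7i-5p (red) or let-7f-5p (blue), whereas on the quantile scale, not plotted, 2 of 11 pairs hold neither and let-7a with let-7f does not pass.

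The ratios were also read by genomic cluster. The members of the chromosome 13 cluster, let-7a, let-7d and let-7f, had spike-scaled log2 ratios of 0.50, 0.41 and -0.10 in C2C12-DF over C2C12-PR, so that let-7f stood apart from its neighbours on this scale. On the quantile scale it lay 0.31 ± 0.23 below let-7a and 0.30 ± 0.23 below let-7d, within 2 technical SD. In W4-08-PR over C2C12-PR they read 0.66, 0.54 and 0.42. let-7b and let-7c of the chromosome 15 cluster lay close on the spike scale in both comparisons, at 0.64 and 0.51 in C2C12-DF and at 0.74 and 0.58 in W4-08-PR. On the quantile scale they differed by 0.25 ± 0.23 in C2C12-DF and 0.28 ± 0.23 in W4-08-PR, so the contrast between the 2 clusters depended on the scale. let-7f and miR-98 of the X chromosome read -0.10 ± 0.17 and 0.16 ± 0.41 in C2C12-DF, a difference within the technical SD.

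The miRNAs miR-99a, miR-99b, miR-100, miR-125a and miR-125b are made beside let-7 genes, and all 5 of their 5p probes were detected on the 3 arrays. On the quantile scale none was called in C2C12-DF over C2C12-PR and all 5 lay above 0, from 0.42 ± 0.14 for miR-99a-5p to 0.70 ± 0.17 for miR-125b-5p. Scaled to the spike controls, as the clusters above, they ran from 0.56 ± 0.17 for miR-99b-5p to 0.99 ± 0.21 for miR-100-5p, and none was called. In the authors' values miR-99a-5p (1.02) and miR-100-5p (1.21) passed the limit in this comparison, and miR-100-5p also did after plain subtraction where the median of the 277 probes set the scale (1.04). In W4-08-PR over C2C12-PR none was called on the quantile scale, with miR-99a-5p at 0.42 ± 0.14, near let-7c (0.34), and miR-125b-5p at the other end with -0.86 ± 0.16. let-7e-5p and its neighbours miR-99b-5p and miR-125a-5p read 0.00, -0.065 and -0.40 there. Scaled to the spike controls, miR-99a-5p passed the limit in this comparison (1.06 ± 0.22), with let-7c below it at 0.58 ± 0.17. On this scale miR-125b-5p read -0.74 ± 0.17. In the authors' values miR-125b-5p stood at 0.040, whereas miR-99a-5p (1.84, beside 1.35 for let-7c), miR-100-5p (1.70) and miR-99b-5p (1.08) were called higher. With the scale set by the median of the 277 probes after plain subtraction, miR-125b-5p was called lower (-1.06). In W4-08-PR over C2C12-DF, 1 of the 5, miR-125b-5p, was called lower on the quantile scale (-1.55 ± 0.16), and it read -0.89 in the authors' values, short of the limit. miR-125a-5p, at -0.98 ± 0.16, passed the limit in 3 of the other 8 settings.

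The opposite strands of the same hairpins, the 3p arms, are usually degraded after the guide strand is loaded. Their 11 probes were at or near background. On each array 2 of 11 passed the detection limit, and none did so on more than 1 array. The brightest were let-7g-3p at 14.1 units for C2C12-PR, let-7d-3p at 16.0 for C2C12-DF and let-7a-2-3p at 13.5 on W4-08-PR. No ratio was drawn from them.

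Among the other probes with a RefSeq mature sequence, 2 carry the let-7 seed. They are shown for comparison with the members above.
let-7k: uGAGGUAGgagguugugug
miR-1961: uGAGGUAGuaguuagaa

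let-7k (chr5:147283257-147283275, minus strand) is 3 bases shorter than the members, and over its 19 bases it differs from let-7b by U9G alone, with the let-7b base first. Its probe read 235, 268 and 290.3 units on the 3 arrays (C2C12-PR, C2C12-DF, W4-08-PR), with log2 ratios of 0.11 ± 0.14 in C2C12-DF over C2C12-PR and -0.17 ± 0.14 in W4-08-PR over C2C12-PR, the latter turning to 0.23 ± 0.18 on the spike scale. Whether this probe reads let-7k itself or the brighter members was not tested. miR-1961 (chr5:92788465-92788481, minus strand) was undetected on every array. let-7j, whose seed GAGGUAU ends in another base, read 22.5, 5.89 (undetected) and 29.5 units in that order. Apart from base 8, its first 22 bases are those of let-7i. Like let-7i-5p, its probe was dimmest on C2C12-DF and brightest on W4-08-PR. Whether it reads let-7j itself or let-7i was not tested. miR-202-3p, the other probe that shares bases 2 to 7 alone with let-7, read -3.46, 13.9 and 7.97 units, detected for C2C12-DF only. The lowest detected readings on the 3 arrays were 11.9, 10.8 and 9.77 units. miR-202-3p lay close to this limit where it was detected. let-7j read 2.96 and 4.59 SD of all blank spots on C2C12-PR and W4-08-PR.

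Of the 268 other probes detected on all 3 arrays, those with a pair of ratios over C2C12-PR nearest to the family medians were miR-346-3p, miR-24-3p, miR-6349, miR-365-1-5p and miR-1231-5p. Their distances on the log2 scale were 0.026 to 0.070. Among the members the same distance was 0.041 for let-7c-5p, 0.054 for let-7d-5p and 0.86 for let-7i-5p. miR-24-3p was the 1 bright probe among the 5, with 936, 1018 and 1200 units, and the other 4 read 12.1 to 32.9 units on C2C12-PR, where the offset draws ratios toward 0.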

How the data were processed

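RNA of the 3 cultures was measured on 1 array each. The authors deposited the intensity of every spot before background subtraction, the intensity after subtraction of 1 background per array, and the intensity multiplied by 1 factor per array (0.561, 0.647 and 0.914) that sets the median of the detected probes at 25. The authors' series table holds these last values (largest difference 4e-06). Scanner settings are not given in the sources used here.

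Spot intensities were corrected with normexp (limma 3.58.1, R 4.3.3; offset 50; background the mean of 1664 blank spots trimmed by 5% at each end), fitted on all spots, quantile-normalized over 1265 probes and log2-transformed (no pseudocount). No probe was removed. Other steps used Python 3.11.15. The technical SD joins the SD of all blank spots and the spike spot CV (8.33%), measured on spots brighter than the members, with a quantile step of slope 1. It therefore leaves out the steps between ranks on the quantile scale. The number of arrays limits the precision. Steps were tested on simulated data with changes past the 2-fold limit, scored on bright probes alone. Smaller changes and dim members were not covered, and the pass mark was set on lowered and unchanged probes, not on raised ones. All simulated arrays started from the C2C12-PR readings. Alternatives were other scalings, background steps, detection rules and size limits.

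The text names the 9 members, their 3p arms, probes with the same seed, cluster neighbours, and the 5 probes nearest to the family medians. Members and lists were chosen with earlier results of these data known. let-7j and miR-202-3p were added after their values were seen. Sequences and positions are from RefSeq (GRCm38.p6). The array files name no build, and gene spans serve for names alone.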

Additional observations from a re-analysis of the deposited data

How the results depend on the processing

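No paired analysis was possible because each condition has 1 array and no replicate numbers, and for the same reason no replicate could be left out. The count of called members changed with 1 setting, the authors' processed values, from 0 to 9 in W4-08-PR over C2C12-PR and from 0 to 2 in W4-08-PR over C2C12-DF. The other 11 settings, including size limits of 0.9 and 2 and stricter detection, gave 0 in each comparison. In the authors' values the family median was 1.26 in W4-08-PR over C2C12-PR, 0.52 in C2C12-DF over C2C12-PR and 0.68 in W4-08-PR over C2C12-DF, since their factors alone differ by a log2 of 0.70, 0.21 and 0.50. With plain subtraction scaled to the spike controls it was 0.49 in W4-08-PR over C2C12-PR. In W4-08-PR over C2C12-DF it was -0.068 with normexp and -0.26 with plain subtraction, both scaled to the median of the probes detected on all arrays. The count of member pairs past 2 technical SD in W4-08-PR over C2C12-PR was 1 with plain subtraction and 10 with normexp and quantile normalization, a comparison added after seeing the data. All other medians moved by less than 1 technical SD. Of 72 alternative values of single members per comparison, 10 had the other sign in W4-08-PR over C2C12-PR and 15 in W4-08-PR over C2C12-DF. In C2C12-DF over C2C12-PR 0 did. Ratios of exactly 0 were left out, so members at 0 on the quantile scale could not count. These were let-7f-5p and let-7g-5p in C2C12-DF over C2C12-PR, where let-7f-5p ran from -0.10 to 0.12. In W4-08-PR over C2C12-PR it was let-7e-5p, and in W4-08-PR over C2C12-DF let-7d-5p. Signal limits miR-98-5p most, whose spike-scaled technical SD was 0.33 to 0.41.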
